A study of Mus musculus with 9 samples.

Results

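Both stresses, 5 Gy of ionizing radiation (IR) and the carcinogen DMBA, were compared as an average with vehicle in mouse melanocyte stem cells, and genes were then sorted into those that the stresses moved the same way and those that they moved in opposite ways. The comparison took all 9 libraries of the series: 3 IR, 3 DMBA and 3 vehicle libraries, with the IR mean and the DMBA mean weighted equally. The cells were purified from skin by fluorescence sorting, and every group carried 1 Dct-H2B-GFP KI allele over a wild-type one (Dct-H2B-GFP KI/+), so the reporter allele was common to stressed and vehicle cells. The labels do not state how old and how many the animals were, how long after treatment the cells were sorted, and how much DMBA was given and by which route. Nor do they state whether IR animals received vehicle, so the vehicle group is the only baseline for both stresses. Nothing in the labels ties replicates to separate animals, and p-values therefore measure only the spread between these libraries.

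Melanocyte stem cells sit in the hair follicle, divide rarely and supply the pigment cells of each new hair. Ionizing radiation breaks DNA directly and activates the p53 protein, which switches on genes of growth arrest and cell death such as Cdkn1a, and the NF-kB factors, which switch on survival and inflammatory genes. DMBA is a polycyclic aromatic hydrocarbon that binds the aryl hydrocarbon receptor (AhR), a factor that induces the cytochromes Cyp1a1 and Cyp1b1. These enzymes turn DMBA into reactive products that attach to DNA, so both agents are known to damage DNA, by different routes.

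Depth ranged from 6938406 to 8156905 counts per library, and expression is given as CPM (read counts brought to a common library size with TMM factors), or as FPKM where a value is corrected for gene length. Melanocyte marker RNA was present throughout: all 8 melanocyte markers were above 0 in every library. Their summed FPKM was 1510 to 2131 in the 6 stressed and 1615 to 1656 in the 3 vehicle libraries (exact permutation test of stressed against vehicle over 84 splits, two-sided, p = 0.774). Keratinocyte marker RNA was also present in every library, and the basal keratinocyte sum exceeded the melanocyte sum in IR 1, vehicle 3 and every DMBA library. The 10 basal keratinocyte markers, none at 0 in any library, summed to 614 to 2946 FPKM in IR, 1974 to 3019 in DMBA and 1164 to 1732 in vehicle libraries (p = 0.345 in the same exact test of 6 against 3). The 8 markers of differentiated epidermis summed to 211 to 1403 FPKM in IR, 1185 to 1780 in DMBA and 475 to 567 in vehicle libraries (exact p = 0.131), with at most 1 marker at 0 in a library. In both sums every DMBA library lay above every vehicle library, while IR libraries lay on both sides of vehicle. The exact tests pool IR with DMBA and do not test DMBA alone. Median log2 fold changes of the basal and differentiated markers were 0.82 and 1.43 in DMBA and 0.04 and 0.55 in IR. Fibroblast markers summed to at most 1.22 FPKM with 2 to 5 of 6 at 0, and endothelial markers to at most 1.07 FPKM. Leukocyte markers summed to 1.58 to 28.01 FPKM in IR, 7.14 to 10.4 in DMBA and 3.33 to 10.9 in vehicle libraries, with 3 to 5 of 7 at 0. The 4 Schwann cell markers summed to 28.85 to 36.09 FPKM in the stressed and 23.6 to 40.6 FPKM in the vehicle libraries. Vehicle 2 and IR 2 had the lowest mean correlation with the other libraries (0.851 and 0.85), and counts without both are given below. In bulk RNA, fewer cells of a type and less RNA per cell cannot be told apart.

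Isg20, Nudcd2, Phlda3 and Map3k20 rose under the average of both stresses and stood higher in all 6 stressed than in all 3 vehicle libraries. Their promoters are shown because, among genes with an FPKM of at least 5, these 4 had the smallest p in the test that asks whether IR and DMBA each raised a gene. The sequences are from RefSeq on build GRCm38.p6, run from 250 bases before to 50 bases after the first listed start, and are read 5′ to 3′ on the gene's strand, which is the plus strand for all 4. They lie at chr7:78913174-78913473, chr11:40733411-40733710, chr1:135765835-135766134 and chr2:72285387-72285686. Capitals mark matches on either strand to 4 motifs: the AhR core GCGTG, the kappaB site GGGNNNNNCC, the AP-1 site TGANTCA and the p53 half-site.
Isg20: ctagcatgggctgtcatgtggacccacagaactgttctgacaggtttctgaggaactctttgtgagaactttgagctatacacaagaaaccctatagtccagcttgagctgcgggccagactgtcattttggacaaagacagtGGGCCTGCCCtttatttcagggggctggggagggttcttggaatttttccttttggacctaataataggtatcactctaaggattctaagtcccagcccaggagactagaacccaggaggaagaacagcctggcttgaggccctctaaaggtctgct
Nudcd2: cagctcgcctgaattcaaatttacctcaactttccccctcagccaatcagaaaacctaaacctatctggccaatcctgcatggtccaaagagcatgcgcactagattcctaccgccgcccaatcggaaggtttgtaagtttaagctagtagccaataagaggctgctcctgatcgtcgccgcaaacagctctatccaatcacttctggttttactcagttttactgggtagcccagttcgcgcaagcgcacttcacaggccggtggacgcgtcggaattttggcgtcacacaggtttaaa
Phlda3: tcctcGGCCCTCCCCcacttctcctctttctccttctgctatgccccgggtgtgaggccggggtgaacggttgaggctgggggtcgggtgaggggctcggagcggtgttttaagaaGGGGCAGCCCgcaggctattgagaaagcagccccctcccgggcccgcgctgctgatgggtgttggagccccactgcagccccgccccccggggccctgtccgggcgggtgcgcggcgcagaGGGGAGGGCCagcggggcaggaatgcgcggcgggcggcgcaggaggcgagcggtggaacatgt
Map3k20: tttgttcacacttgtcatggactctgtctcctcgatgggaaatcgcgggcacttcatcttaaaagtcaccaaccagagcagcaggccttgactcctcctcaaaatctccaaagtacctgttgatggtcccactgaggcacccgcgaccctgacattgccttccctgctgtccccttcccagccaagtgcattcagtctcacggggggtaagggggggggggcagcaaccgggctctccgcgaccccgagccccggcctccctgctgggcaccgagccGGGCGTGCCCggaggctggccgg
The Isg20 window held 1 kappaB match, at -107 from the start, and the Phlda3 window held 3, at -245, -134 and -13. The Map3k20 window held a kappaB match at 28, which overlaps an AhR core match at 30, and the Nudcd2 window held none of the 4 motifs. Of the genes given below with the same pattern, the Tnfaip3 window held 2 AhR core, 6 kappaB and 1 AP-1 matches, some of them overlapping, and the Cpt1c window none. For contrast, the window of Cyp1a1, a gene raised by DMBA and at 4 counts in all of IR, is at chr9:57697363-57697662 on the plus strand and holds an AhR core match at -54 and a kappaB match at 19.
Cyp1a1: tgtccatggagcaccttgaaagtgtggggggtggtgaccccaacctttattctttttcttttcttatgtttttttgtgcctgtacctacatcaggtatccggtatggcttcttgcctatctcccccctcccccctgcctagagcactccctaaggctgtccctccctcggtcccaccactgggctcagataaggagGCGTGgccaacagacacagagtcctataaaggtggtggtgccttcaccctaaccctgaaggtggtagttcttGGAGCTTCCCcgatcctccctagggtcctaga
The letters of the AhR core and of the kappaB site are common. The AhR core occurred in 32.5% of 27025 promoters of this length and in 51.7% of the 10582 that belong to genes tested here, against 10 of the 23 matched genes called in the pooled comparison. The kappaB letters occurred in 50.4% of all promoters and 67.8% of those of tested genes, against 15 of the 23. The p53 half-site occurred in 8.37% and 6.75%, against 5 of the 23, and AP-1 in 7.93% and 4.94%, against 3 of the 23. A match is a description of the letters and not a binding site.

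Averaged over both stresses, 29 of the 16051 genes tested were higher than in vehicle and 0 were lower, at an adjusted p under 0.05 in edgeR's quasi-likelihood test (0.181% of genes tested higher and 0% lower). Targets of p53 were the most numerous of the gene groups examined, with 8 of the 29, and NF-kB genes came next with 5. Before adjustment, p was under 0.05 for 673 higher and 502 lower genes (4.19% and 3.13%). IR alone changed 118 genes against vehicle (0.735%; 0.71% higher and 0.0249% lower) and DMBA alone 6, all higher (0.0374%), so the average combined groups with very unequal numbers of calls. Of the 29 genes, 27 were also called in IR against vehicle and 3 in DMBA against vehicle (Isg20, Cyp1a1 and Adh7), and 0 were called in the average without being called in one of the stresses. Both single comparisons use the same vehicle libraries.

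Most of the 29 rises were unequal between the stresses. IR and DMBA libraries differed directly, in edgeR's test of one against the other, for 24 of the 29, against 0.978% of all genes tested: 22 were higher in IR (0.878% of all genes tested) and 2, Cyp1a1 and Adh7, were higher in DMBA (0.0997%). Over the 29, the median log2 fold change was 2.26 in IR and 0.36 in DMBA, and 5 of them (Gm42047, Relb, Csf1, Sesn2 and Pgpep1) had a DMBA value below 0. The remaining 5, for which the difference between the stresses missed the threshold, were Isg20, Cpt1c, Nudcd2, Cdc42bpg and Tnfaip3, with adjusted p in edgeR of 0.0769, 0.362, 0.597, 0.0532 and 0.056 for IR against DMBA. The plot of the 29 genes shows the IR values to the right of the DMBA values for every gene but Cyp1a1 and Adh7. Both stresses had the same sign for 24 of the 29, against 10760 of all 16051 genes tested. In DMBA against vehicle, 12 of the 29 had an unadjusted p under 0.05 in edgeR, against 1076 of all genes tested. For 11 of the 29 that held in both stresses with the same sign, against 259 of all genes tested. The same libraries chose the 29.

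**Figure D1:**
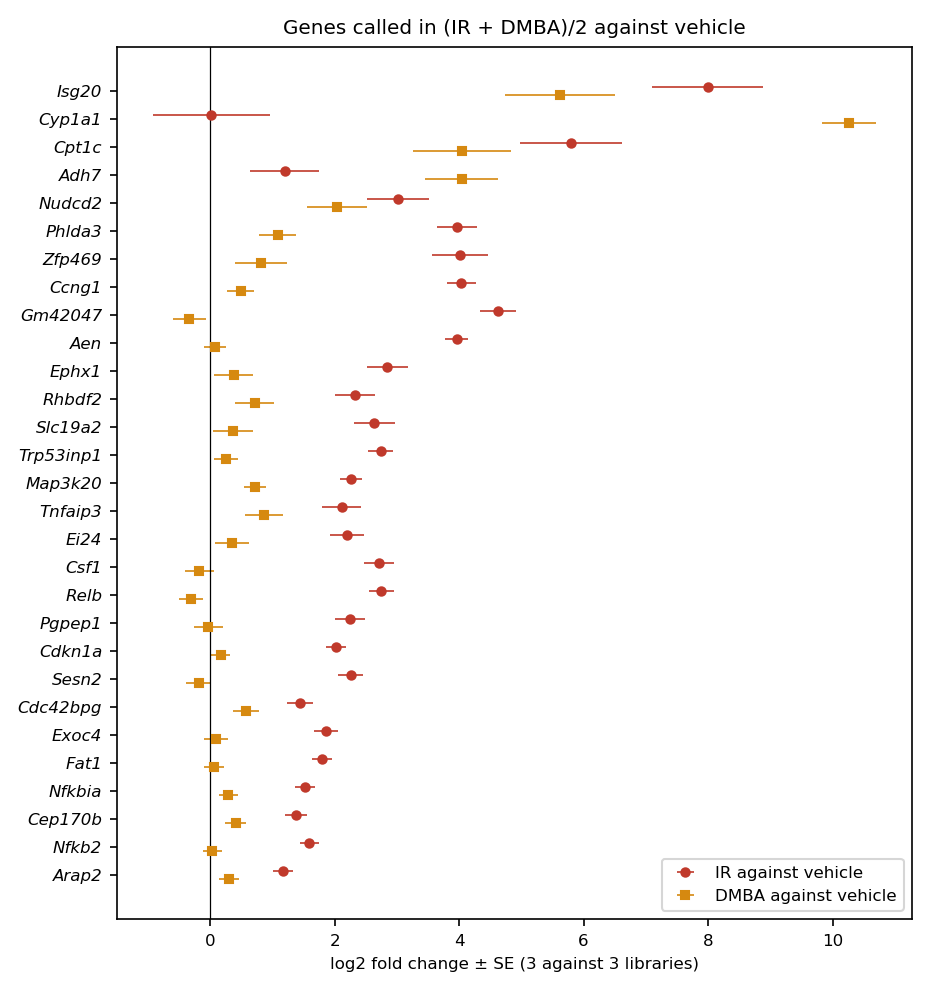
Log2 fold change of the 29 genes called in the average of both stresses, IR against vehicle (circles) and DMBA against vehicle (squares), with standard errors as bars and 3 libraries per group. For 27 genes the IR value is the larger, and the median of the 29 DMBA values is 0.36.

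The count of 29 rests on treating the stresses as separate groups. With 1 mean for the 6 stressed libraries, so that the gap between IR and DMBA counts as spread, edgeR called 0 genes (1034 at an unadjusted p under 0.05, of which 646 higher and 388 lower), and the smallest adjusted p was 0.215. The count of higher genes was 17 without vehicle 1, 13 without vehicle 2, 12 without vehicle 2 and IR 2, 10 with limma on log2(FPKM + 1) and 82 with DESeq2, which also called 7 lower.

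Isg20, an interferon-inducible exonuclease that degrades RNA, was the gene closest to a shared response. It had 26.6, 15.6 and 39.1 CPM in the IR libraries, 6.55, 2.56 and 6.59 CPM in the DMBA libraries and 0, 0 and 0.287 CPM in the vehicle libraries. Vehicle cells were at or near 0, every DMBA library was above every vehicle library, and every IR library was above every DMBA library. The summed counts were 599 in IR, 119 in DMBA and 2 in vehicle. The ratio to vehicle was 300.5 for IR (95% interval 82.8 to 2487) and 60.0 for DMBA (16.2 to 501), with intervals that cover counting error only. The rise passed the threshold in the average (edgeR adjusted p = 0.000542), in IR (3.36e-05) and in DMBA (0.0207). Aen, the p53-induced nuclease gene that lies 2214 bases from Isg20 in the deposited coordinates and on the same strand, had 281, 339 and 309 CPM in the IR libraries, 22.1, 19.1 and 21.8 CPM in the DMBA libraries and 21.4, 19.7 and 18.7 CPM in the vehicle libraries. Aen was thus high in IR only, with a log2 fold change of 0.08 ± 0.18 in DMBA (edgeR adjusted p = 0.975), while Isg20 rose in both; whether reads of one reach the other was not tested.

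All 6 stressed libraries lay above all 3 vehicle libraries for 7 of the 29 genes, against 1.73% of genes tested (the same libraries chose the 29). Phlda3, a p53 target that restrains the kinase Akt, had 135, 152 and 100.02 CPM in the IR libraries, 12.5, 25.8 and 14.3 CPM in the DMBA libraries and 9.94, 6.33 and 8.48 CPM in the vehicle libraries. Its pooled log2 fold change was 2.52 ± 0.28 (edgeR adjusted p = 0.000203), with 3.96 ± 0.32 in IR and 1.08 ± 0.30 in DMBA, where it missed the threshold (adjusted p = 0.518). Map3k20, the kinase ZAK that senses stalled ribosomes and activates JNK and p38, had 320.02, 270.2 and 246 CPM in the IR libraries, 92.4, 109.99 and 84.4 CPM in the DMBA libraries and 55.1, 56.004 and 62.9 CPM in the vehicle libraries. The groups formed 3 separate steps, and the pooled value was 1.49 ± 0.16 (adjusted p = 0.000124 in edgeR). In DMBA the value was 0.72 ± 0.17, which missed the threshold against vehicle (adjusted p = 0.414 in edgeR). IR exceeded DMBA for Map3k20 by 1.54 ± 0.17 on the log2 scale (adjusted p = 3.22e-05 in edgeR).

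Tnfaip3, which encodes A20, a feedback inhibitor of NF-kB, had 122, 71.6 and 69.2 CPM in the IR libraries, 32.7, 42.2 and 35.8 CPM in the DMBA libraries and 14.1, 30.4 and 16.4 CPM in the vehicle libraries. The lowest DMBA library stood just above the highest vehicle library, vehicle 2, and the pooled value was 1.49 ± 0.28 (edgeR adjusted p = 0.0297); the call was lost without vehicle 1, vehicle 3, DMBA 2 or DMBA 3. Arap2, a GTPase-activating protein for Arf, had 226, 234 and 212 CPM in the IR libraries, 117, 134 and 115 CPM in the DMBA libraries and 108, 87.6 and 103 CPM in the vehicle libraries. Its pooled log2 fold change of 0.73 ± 0.14 was the smallest of the 29 (adjusted p = 0.0421 in edgeR), and its call was lost when any library other than IR 1 was left out. Reads of Map3k20 and of Arap2 may be shared with the predicted genes or pseudogenes that overlap them.

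Nudcd2 and Cpt1c stood above vehicle in all 6 stressed libraries, and for both the difference between the stresses missed the adjusted threshold (unadjusted p in edgeR of 0.0465 and 0.0136). Nudcd2, a NudC-domain protein of the Hsp90 co-chaperone kind, had 37.4, 23.4 and 20.03 CPM in the IR libraries, 21.3, 9.74 and 10.02 CPM in the DMBA libraries and 4.91, 1.88 and 3.16 CPM in the vehicle libraries. The pooled value was 2.52 ± 0.46 (adjusted p = 0.0251 in edgeR), with 3.01 ± 0.50 in IR and 2.04 ± 0.49 in DMBA. Against vehicle the DMBA value missed the threshold (adjusted p = 0.414 in edgeR). IR minus DMBA was 0.98 ± 0.46 on the log2 scale, which missed the threshold, and the pooled call was lost without vehicle 2 or vehicle 3. Nudcd2 lies 244 bases from Hmmr and 8505 bases from Ccng1, a p53 target that IR raised strongly. Cpt1c, a brain-type carnitine palmitoyltransferase, stayed under the FPKM minimum of the naming rule and was chosen after its values were seen. It had 23.6, 14.5 and 16.3 CPM in the IR libraries, 7.45, 3.205 and 5.49 CPM in the DMBA libraries and 0.491, 0 and 0.431 CPM in the vehicle libraries. Its summed counts were 409 in IR, 123 in DMBA and 7 in vehicle, ratios to vehicle of 58.6 for IR (28.2 to 147) and 17.7 for DMBA (8.34 to 45.0), and its pooled adjusted p in edgeR was 0.00674. Every IR library of Cpt1c lay above every DMBA library.

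**Figure D2:**
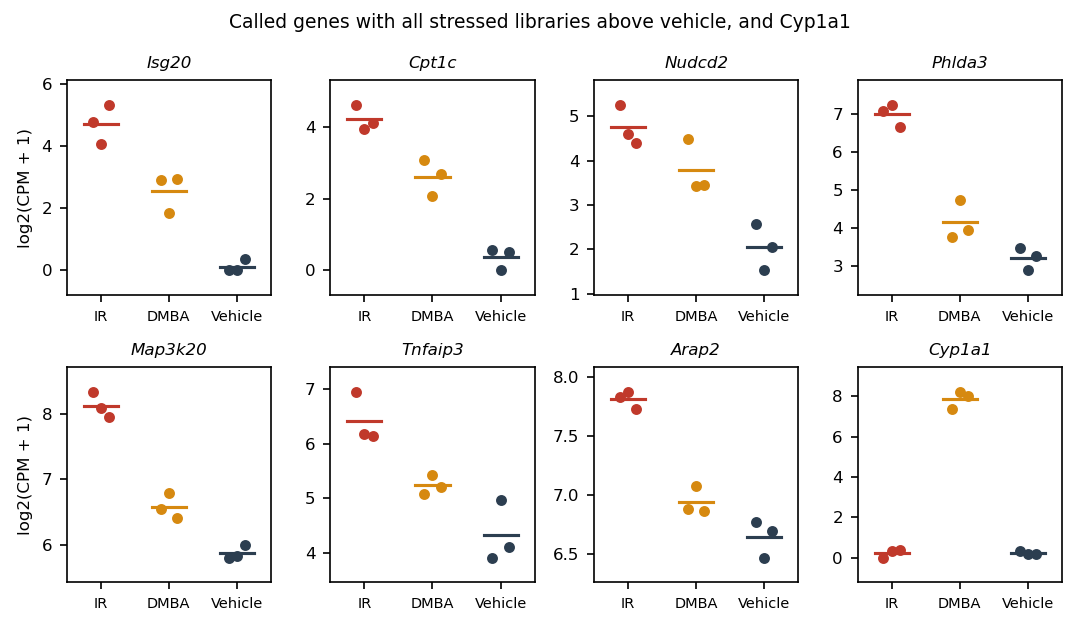
Log2(CPM + 1) per library of the 7 called genes whose stressed libraries all lie above vehicle, and of Cyp1a1, with 3 IR, 3 DMBA and 3 vehicle libraries in each panel, with a bar at each mean. In the 7 panels the DMBA mean lies between the IR mean above and the vehicle mean below, whereas Cyp1a1 is high in DMBA alone.

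A strict test asked for each gene whether IR and DMBA each moved it the same way. It took the weaker of the 2 one-sided tests, doubled its p to allow for either direction and adjusted over all genes. It called 0 genes higher and 0 lower (0% of genes tested), and the smallest adjusted p was 0.0826, for Isg20, from edgeR's quasi-likelihood fit. Isg20 passed this test in edgeR without IR 2 (adjusted p = 0.0413) or without DMBA 2 (0.0265). It missed the threshold with any other single library left out, from 0.0658 without IR 1 to 0.853 without vehicle 2. It also missed it with limma and with each stress fitted with vehicle alone, and passed with no count filter (4.03e-07 in edgeR). DESeq2 called 3 genes the same way, Isg20, Cpt1c and Prr7, all higher, and the last was picked out after its values were seen. On simulated counts for 16051 genes, this test recovered 14.5% of 2-fold, 53% of 4-fold and 72.3% of 8-fold shared changes, so it missed most shared changes of 2-fold there. The simulation changed 200 genes by the same fold in both stresses, and recovery for unequal effects or for other numbers of changed genes was not tested.

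A looser count takes genes with an unadjusted p under 0.05 in IR against vehicle and in DMBA against vehicle and the same sign, in comparisons that share their vehicle libraries. It held 174 genes higher (1.08% of genes tested) and 85 lower (0.53%). The 174 were mostly weakly expressed in vehicle: the median of their mean CPM was 14.8 in IR, 15.9 in DMBA and 4.27 in vehicle libraries. A count of 0 in at least 1 vehicle library was found for 61 of them (35.06%), against 9.532% of all genes tested. At 0 in all 3 vehicle libraries were 32 of them, against 48 of all 16051 genes tested. Genes at 0 throughout vehicle passed the count filter only through the stressed libraries. The same contrasts chose the 174 for values above vehicle, so low vehicle counts were part of the choice. More genes were detected in most stressed libraries, 19014 to 21098 in IR and 19702 to 20877 in DMBA, against 18382 to 19271 in vehicle, and the part this has in the 174 was not tested. The 85 lower genes were better expressed, with medians of 36.4 CPM in IR, 38.0 CPM in DMBA and 59.4 CPM in vehicle. None of the 85 was at 0 in a vehicle library, which choosing genes higher in vehicle favours. Their median log2 fold change was -0.69 in IR and -0.67 in DMBA, and for 64 of the 85 all stressed libraries lay below vehicle, against 1.69% of genes tested (the same contrasts chose them). The count of higher genes was 286 without IR 2, 300 without vehicle 1 and 291 without vehicle 3, and the count of lower genes was 129 without vehicle 1. With the keratinocyte level as a covariate the counts were 117 and 61.

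**Figure D3:**
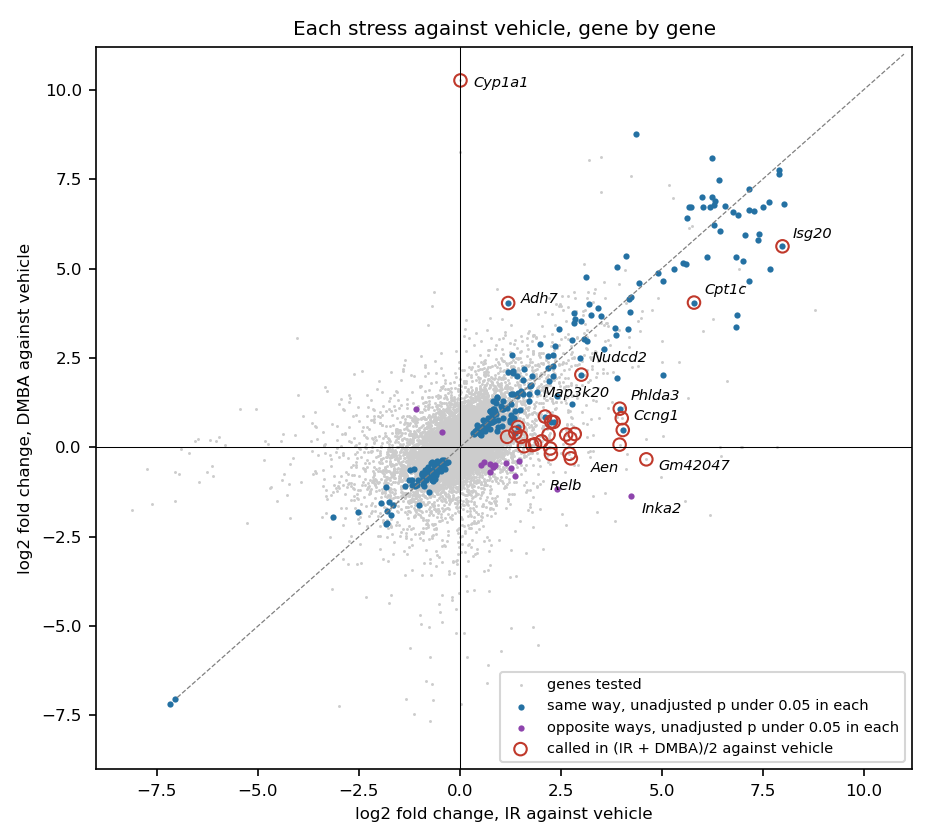
Log2 fold change against vehicle of every gene tested, IR on the x axis and DMBA on the y axis, with the dashed line marking equal values. Blue points are the 174 higher and 85 lower genes of the looser same-way count, and purple points the 13 and 2 genes of the opposite-way count. Red circles are the 29 genes called in the average, 27 of which lie below the dashed line.

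The better expressed genes with the smallest same-way p were Isg20, Nudcd2, Map3k20 and Phlda3, given above, followed by genes of metabolism, transcription and ribosome assembly that edgeR called in none of the comparisons with all 9 libraries and the count filter. Tsc22d3, a glucocorticoid-induced leucine zipper protein, had 163, 194 and 183 CPM in the IR libraries, 101, 182 and 199.97 CPM in the DMBA libraries and 76.1, 115 and 90.2 CPM in the vehicle libraries. DMBA 1 lay below vehicle 2, and the log2 fold changes of Tsc22d3 were 0.94 ± 0.23 in IR and 0.78 ± 0.23 in DMBA. Cs, the citrate synthase that opens the citric acid cycle, had 117, 98.2 and 110.1 CPM in the IR libraries, 102, 119 and 91.5 CPM in the DMBA libraries and 76.1, 50.1 and 69.8 CPM in the vehicle libraries. The stressed libraries of Cs did not overlap vehicle, and its log2 fold changes were 0.73 ± 0.20 and 0.67 ± 0.20 in IR and DMBA. Tsr2, which delivers a protein to the small ribosomal subunit, had 21.2, 34.7 and 24.1 CPM in the IR libraries, 27.99, 24.9 and 24.02 CPM in the DMBA libraries and 17.1, 8.35 and 7.76 CPM in the vehicle libraries. Values of Tsr2 lay above vehicle in all 6 stressed libraries by 1.27 ± 0.37 in IR and 1.21 ± 0.37 in DMBA on the log2 scale, without passing the adjusted threshold (pooled adjusted p in edgeR = 0.301), and the gene overlaps Fgd1. The pooled comparison called Tsc22d3, Cs and Med11 with DESeq2 (adjusted p = 0.0104, 0.0276 and 0.0223), Tsc22d3 and Cs with no count filter (0.000279 and 0.0479), and Tsc22d3 without DMBA 1 in edgeR (0.0163). Med11, a subunit of the Mediator complex, had 11.7, 4.33 and 4.76 CPM in the IR libraries, 8.603, 6.41 and 10.2 CPM in the DMBA libraries and 0.737, 2.02 and 1.44 CPM in the vehicle libraries, and its counts are low in every library.

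The genes with the smallest same-way p among the lower ones lay below vehicle by similar amounts in both stresses, and none passed an adjusted threshold. Phka1, a regulatory subunit of the phosphorylase kinase that starts glycogen breakdown, had 22.7, 36.2 and 41.2 CPM in the IR libraries, 27.9, 34.6 and 32.5 CPM in the DMBA libraries and 42.97, 70.7 and 64.95 CPM in the vehicle libraries. Its log2 fold changes were -0.84 ± 0.28 in IR and -0.91 ± 0.28 in DMBA (unadjusted same-way p in edgeR = 0.0072). Srf, the serum response factor that drives immediate early and actin genes, had 237, 222 and 221 CPM in the IR libraries, 253, 249.7 and 177 CPM in the DMBA libraries and 364, 291 and 297 CPM in the vehicle libraries. Every stressed library of Srf lay below every vehicle library, at -0.49 ± 0.17 in IR and -0.49 ± 0.17 in DMBA. Zyx, an actin-regulating focal adhesion protein, was named after its values were seen. It had 145, 205 and 159.97 CPM in the IR libraries, 182, 188 and 147 CPM in the DMBA libraries and 222, 243 and 227 CPM in the vehicle libraries. The remaining genes named by the rule were Ahsa2, Crocc, Ppp4r1l-ps, Kif3c, Ift46 and Cerk. Crocc encodes the ciliary rootlet protein, Ift46 a carrier of ciliary transport, Kif3c a kinesin motor and Cerk ceramide kinase. Their pooled log2 fold changes lay between -0.78 (Ahsa2) and -0.53 (Kif3c), and the adjusted p in edgeR was at least 0.348. Ift46 illustrates the group, with 40.1, 55.7 and 43.2 CPM in the IR libraries, 47.6, 44.99 and 49.5 CPM in the DMBA libraries and 68.7, 75.7 and 65.96 CPM in the vehicle libraries. Every stressed library of Ift46 lay below every vehicle library, while IR and DMBA overlapped. Ahsa2 overlaps Usp34 and Kif3c overlaps other tested genes, so their counts are uncertain.

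The strict test for opposite directions called 0 genes in either order (0% of genes tested), with every adjusted p at 1 in edgeR's fit, and the looser count at an unadjusted p under 0.05 in each stress held 13 genes higher in IR and lower in DMBA (0.081%) and 2 lower in IR and higher in DMBA (0.0125%). The 13 had a median log2 fold change of 0.88 in IR and -0.52 in DMBA, and the median of their mean CPM was 128 in IR, 62.8 in DMBA and 84.1 in vehicle libraries. Of the 13, 7 were called against vehicle in IR, as were 0 of the 2, and 0 of the 15 were called in DMBA. Both contrasts share the vehicle libraries, and on simulated counts for 16051 genes the strict test recovered 14.3% of 2-fold, 56.1% of 4-fold and 69% of 8-fold opposite changes.

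Inka2, an inhibitor of the kinase PAK4, had the smallest opposite-way p of the named genes. It had 131, 139.9 and 143 CPM in the IR libraries, 4.37, 3.205 and 0.823 CPM in the DMBA libraries and 5.401, 12.8 and 3.74 CPM in the vehicle libraries. IR stood far above both other groups, while DMBA overlapped vehicle, with DMBA 1 above vehicle 3. The log2 fold change was 4.23 ± 0.43 in IR (edgeR adjusted p = 1.53e-05) and -1.37 ± 0.45 in DMBA (adjusted p = 0.571). Mybl1, the transcription factor A-Myb, had 75.98, 82.3 and 62.7 CPM in the IR libraries, 3.595, 7.43 and 7.55 CPM in the DMBA libraries and 22.8, 4.17 and 14.2 CPM in the vehicle libraries. Vehicle overlapped DMBA and stayed below IR, and the log2 fold changes were 2.42 ± 0.44 in IR and -1.15 ± 0.45 in DMBA. Arhgef40, which overlaps Zfp219, had 254, 347 and 332 CPM in the IR libraries, 97.6, 114 and 99.2 CPM in the DMBA libraries and 145, 161 and 116 CPM in the vehicle libraries. IR, vehicle and DMBA formed 3 steps from high to low that did not overlap for this gene.

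Tap1, the peptide transporter of class I antigen presentation, had 254, 183 and 134 CPM in the IR libraries, 74.2, 78.6 and 69.4 CPM in the DMBA libraries and 105, 112 and 108 CPM in the vehicle libraries. All IR libraries lay above vehicle, at 0.81 ± 0.20 on the log2 scale, and all DMBA libraries below it, at -0.55 ± 0.20, but Tap1 overlaps Psmb9 in the deposited coordinates. Birc2, an inhibitor of apoptosis that also regulates NF-kB, had 169, 233 and 183 CPM in the IR libraries, 81.9, 67.9 and 77.3 CPM in the DMBA libraries and 87.9, 131 and 99.3 CPM in the vehicle libraries. It followed the same order, with 0.88 ± 0.19 in IR and -0.49 ± 0.19 in DMBA. Its neighbour Birc3, at 11634 bases, rose in IR by 2.51 ± 0.30 (edgeR adjusted p = 7.65e-05) and had -0.15 ± 0.29 in DMBA. Csnk1g1, a casein kinase, had 127, 125 and 128 CPM in the IR libraries, 53.4, 67.04 and 68.1 CPM in the DMBA libraries and 80.2, 86.3 and 85.8 CPM in the vehicle libraries. Its libraries showed 3 narrow groups in the order IR, vehicle, DMBA from high to low.

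In the other order, Sgcb and Gm29863 met the looser count. Sgcb, the beta subunit of the sarcoglycan complex, had 45.4, 43.1 and 52.9 CPM in the IR libraries, 97.3, 80.5 and 83.2 CPM in the DMBA libraries and 69.97, 54.3 and 67.7 CPM in the vehicle libraries. Its 3 groups did not overlap, with IR lowest and DMBA highest. Gm29863, a predicted gene outside the naming rule, had 13.1, 7.99 and 13.1 CPM in the IR libraries, 42.8, 53.3 and 55.04 CPM in the DMBA libraries and 23.9, 22.9 and 25.3 CPM in the vehicle libraries. Its groups did not overlap, and the log2 fold changes mirrored each other at -1.07 ± 0.29 in IR and 1.07 ± 0.29 in DMBA. The naming rule further takes Mink1, Hacd3, Lrig1, Fam189a2 and Arhgap31, whose opposite-way p lay between 0.0777 and 0.102 before adjustment in edgeR's fit. Lrig1, a brake on epidermal growth factor receptors that also marks stem cells of the epidermis, had 62.1, 39.003 and 30.4 CPM in the IR libraries, 96.6, 93.8 and 92.5 CPM in the DMBA libraries and 63.96, 42.003 and 76.9 CPM in the vehicle libraries. IR overlapped vehicle for Lrig1, and DMBA lay above both.

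Library IR 1, which had the highest keratinocyte sum of the IR group, decides how many genes fall in this order. Without it the count lower in IR and higher in DMBA was 82 in place of 2, and the 82 are 0.479% of the 17126 genes tested without IR 1. The 82 included 9 of the 18 tested keratinocyte-list genes, 3 of them keratins, and 5 keratins in all. The count was 5 without IR 3 and 1 without vehicle 1, vehicle 3 or any 1 DMBA library. The count higher in IR and lower in DMBA was 27 without IR 1 and 5 without vehicle 2. The part that keratinocyte RNA has in these counts was not tested beyond the covariate, with which they were 9 and 11.

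**Figure D4:**
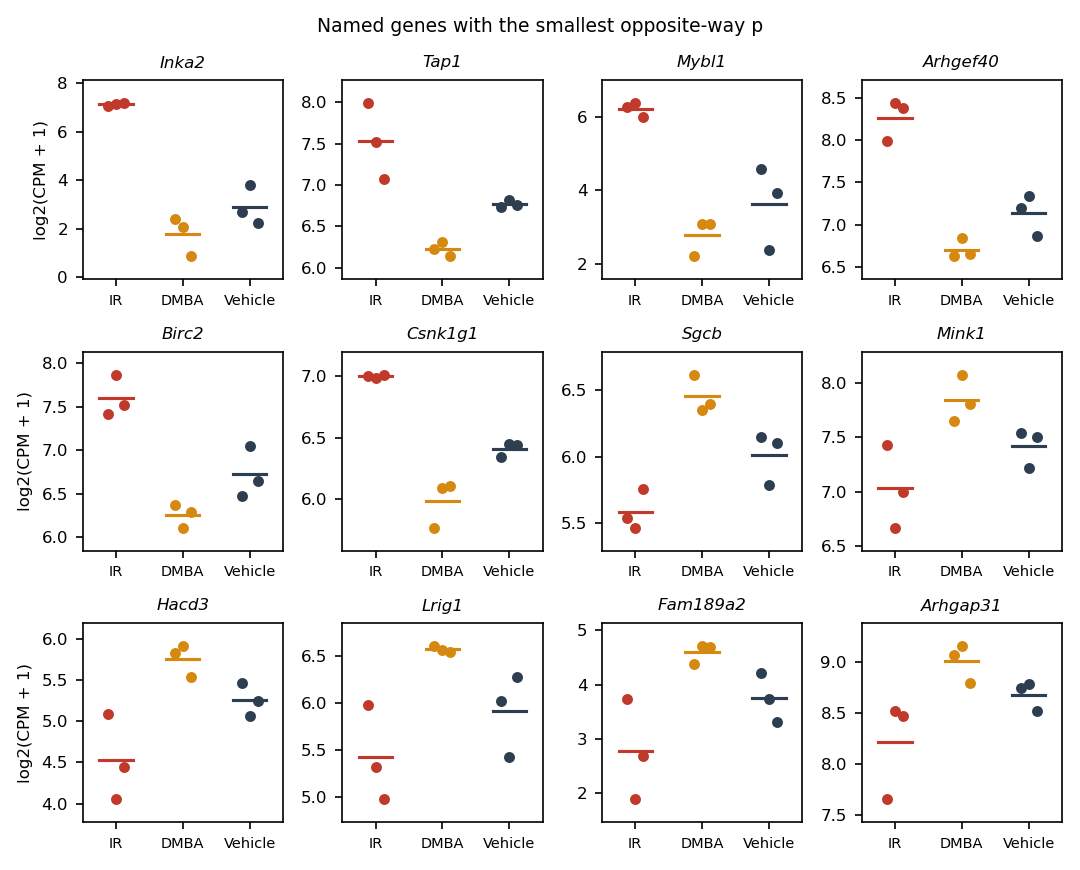
Log2(CPM + 1) per library of genes named for the smallest opposite-way p, 3 IR, 3 DMBA and 3 vehicle libraries in each panel, with a bar at each mean. For the genes higher in IR the vehicle mean lies between IR above and DMBA below, and for those higher in DMBA the order is the reverse.

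Among p53 targets, all 40 genes of the list were tested and 8 rose in the average (Aen, Ccng1, Cdkn1a, Ei24, Ephx1, Phlda3, Sesn2 and Trp53inp1), against 0.181% of all genes. The median log2 fold change was 0.92 in the average, 1.63 in IR and 0.14 in DMBA, against -0.00, -0.00 and 0.01 for all genes tested. In IR against vehicle 21 of the 40 were higher (0.71% of all genes tested), and in DMBA against vehicle 0 were (0.0374% of all genes tested). Cdkn1a, the cell cycle inhibitor p21, had 925, 892 and 787 CPM in the IR libraries, 239.99, 276 and 204 CPM in the DMBA libraries and 231, 188 and 221 CPM in the vehicle libraries. Its pooled value of 1.10 ± 0.14 (edgeR adjusted p = 0.000542) came with 0.17 ± 0.15 in DMBA, whose libraries overlapped vehicle. Ccng1, cyclin G1, had 571, 547 and 438 CPM in the IR libraries, 42.8, 37.6 and 52.4 CPM in the DMBA libraries and 25.04, 44.02 and 25.7 CPM in the vehicle libraries. Here DMBA also overlapped vehicle, at 0.49 ± 0.21 (unadjusted p = 0.0356 in edgeR). Mdm2, the ligase that degrades p53, averaged 442 ± 80.1 CPM in IR, 91.03 ± 20.9 CPM in DMBA and 115 ± 21.7 CPM in vehicle libraries (SD, n = 3 each) and was not called in the average (adjusted p = 0.0953 in edgeR). The count of 8 was 5 without vehicle 1, 5 without vehicle 2 and IR 2, 5 with limma on log2(FPKM + 1), 15 with DESeq2 and 16 with no count filter. Among the 8, Ei24 was lost without vehicle 1, vehicle 2, IR 2 or DMBA 3, Sesn2 without vehicle 1 or vehicle 3, and Ephx1 without any 1 vehicle library.

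Of 26 NF-kB genes, 21 were tested and 5 rose in the average (Csf1, Nfkb2, Nfkbia, Relb and Tnfaip3), against 0.181% of all genes tested. The median log2 fold change of the list was 0.81 in the average, 1.52 in IR and 0.03 in DMBA. Relb, a subunit of the noncanonical pathway, had 193, 198 and 197 CPM in the IR libraries, 24.8, 25.8 and 19.9 CPM in the DMBA libraries and 29.95, 26.8 and 30.5 CPM in the vehicle libraries. Its pooled rise of 1.22 ± 0.17 (edgeR adjusted p = 0.00179) joined 2.75 ± 0.19 in IR to -0.31 ± 0.19 in DMBA. Nfkbia, the inhibitor IkB alpha, had 427, 449 and 369.8 CPM in the IR libraries, 165, 158 and 210.3 CPM in the DMBA libraries and 133, 144 and 158 CPM in the vehicle libraries. DMBA overlapped vehicle for Nfkbia, at 0.29 ± 0.16 (adjusted p = 0.759 in edgeR). Csf1, the macrophage growth factor, averaged 248 ± 34.03 CPM in IR, 33.3 ± 11.02 CPM in DMBA and 37.7 ± 8.27 CPM in vehicle libraries (SD, n = 3 each). The count of 5 was 1 without vehicle 1, 2 without vehicle 2, 3 without vehicle 3 and 1 without vehicle 2 and IR 2, and it was 1 with limma, 8 with DESeq2 and 9 with no count filter. The calls of Nfkbia and Csf1 were lost without vehicle 1 or vehicle 2, and that of Nfkb2 without any 1 vehicle library.

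Of 18 AhR and xenobiotic genes, 16 were tested and 2 rose in the average, Cyp1a1 and Ephx1, from opposite sources (0.181% of all genes tested rose). Cyp1a1 had 0, 0.271 and 0.288 CPM in the IR libraries, 163, 295 and 258 CPM in the DMBA libraries and 0.246, 0.135 and 0.144 CPM in the vehicle libraries. Its summed counts were 4 in IR, 5449 in DMBA and 4 in vehicle, a ratio to vehicle of 1.00 in IR (0.187 to 5.39) and of 1373 in DMBA (536 to 5042). The pooled call (edgeR adjusted p = 0.00674) is thus the call of DMBA alone, and it was lost without IR 2 or IR 3. Ephx1, the microsomal epoxide hydrolase that acts on products of polycyclic hydrocarbons, had 260.3, 257 and 157 CPM in the IR libraries, 27.2, 33.7 and 60.5 CPM in the DMBA libraries and 39.7, 37.7 and 16.1 CPM in the vehicle libraries. It is also on the p53 list, and here IR was high while DMBA overlapped vehicle. The count of 2 was 1 without any 1 vehicle library or without IR 3, 0 without vehicle 2 and IR 2, 1 with limma, 4 with DESeq2 and 5 with no count filter. Adh7, an alcohol dehydrogenase of retinol metabolism, had 16.6, 3.39 and 9.66 CPM in the IR libraries, 43.5, 78.96 and 90.7 CPM in the DMBA libraries and 4.297, 1.08 and 7.62 CPM in the vehicle libraries. IR overlapped vehicle for Adh7 (IR 2 lay below vehicle 1 and vehicle 3), and its pooled adjusted p in edgeR was 0.0497. The call of Adh7 was lost under 11 of 21 alternatives, among them another scaling (RLE), the stricter count filter and leaving out vehicle 1, vehicle 2, IR 3, DMBA 2 or DMBA 3. Xdh, xanthine dehydrogenase, stood above vehicle in all 6 stressed libraries, with 19.7, 7.99 and 8.94 CPM in the IR libraries, 28.4, 35.5 and 25.8 CPM in the DMBA libraries and 5.52, 2.69 and 6.75 CPM in the vehicle libraries, without passing the pooled threshold (adjusted p = 0.105 in edgeR).

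Class I antigen presentation showed values above 0 for 22 of its 23 genes in the average, against 8001 of all 16051 genes tested. Of the 23, 0 were called (0.181% of all genes tested). Their median log2 fold change was 0.49 in the average, 0.95 in IR and 0.14 in DMBA. The median in the average was 0.31 without IR 1, the library with the highest keratinocyte sum of the IR group and with leukocyte markers at 28.01 FPKM, against 1.58 and 2.31 FPKM in IR 2 and IR 3. With the keratinocyte covariate the median was 0.35, and the part that leukocyte RNA has in it was not tested. Called members numbered 1 with DESeq2 and 4 with no count filter. Tapbp, tapasin, averaged 211 ± 74.02 CPM in IR, 82.4 ± 1.68 CPM in DMBA and 78.8 ± 9.94 CPM in vehicle libraries (SD, n = 3 each; pooled adjusted p = 0.247 in edgeR). Of 31 tested interferon-stimulated genes, 1 was called, Isg20, against 0.181% of all genes tested. Their median was 0.39 in the average, 0.79 in IR and -0.16 in DMBA. That median in the average was 0.25 without IR 1 and 0.26 without IR 2. The only gene called among 14 tested senescence secretory factors was Csf1 (0 without vehicle 1 or vehicle 2, 2 without IR 2, 0 with limma and 4 with no count filter), and 15 of the 29 listed did not pass the filter on low counts. Of the 23 tested genes of the unfolded protein and amino acid stress response, 1 was called, Sesn2, and 0 without vehicle 1 or vehicle 3.

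No gene of the other process lists was called in the average by edgeR with all 9 libraries and the count filter. The 26 NRF2 antioxidant genes had a median log2 fold change of 0.28, with 22 above 0, against 8001 of all 16051 genes tested. Of the 26, 2 had an unadjusted p under 0.05 in edgeR, against 7.32% of all genes tested, a similar share. Fth1, ferritin heavy chain, averaged 682 ± 28.2 CPM in IR, 574 ± 68.8 CPM in DMBA and 514 ± 54.4 CPM in vehicle libraries (SD, n = 3 each). The NRF2 median was 0.12 without vehicle 2. Of 27 tested immediate early genes, 9 lay above 0 and 4 were lower with p under 0.05 before adjustment in edgeR, against 3.13% of all genes tested. Fosb, a subunit of AP-1, averaged 3998 ± 282 CPM in IR, 4838 ± 1604 CPM in DMBA and 5973 ± 648 CPM in vehicle libraries. The 28 tested mitotic genes had a median of -0.27 in the average, -0.56 in IR and -0.13 in DMBA, and the first of these was -0.09 without vehicle 3, -0.61 without vehicle 2, -0.48 without DMBA 3 and -0.41 without IR 1. Mki67, the proliferation marker, averaged 18.7 ± 21.4 CPM in IR, 57.5 ± 29.3 CPM in DMBA and 61.7 ± 34.4 CPM in vehicle libraries, with wide SDs. The 33 DNA damage signalling and repair genes had 0 members with p under 0.05 before adjustment, against 7.32% of all genes tested, and a median of -0.05, which ran between -0.11 without vehicle 2 and 0.05 without vehicle 1.

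No pigment or lineage gene was called in the average. The 25 melanin and melanosome genes had a median log2 fold change of -0.13 in the average, -0.15 in IR and -0.13 in DMBA, and the 24 lineage regulators one of -0.00. Dct, the gene that carries the reporter allele, averaged 2535 ± 596 CPM in IR, 2846 ± 266 CPM in DMBA and 3069.6 ± 36.9 CPM in vehicle libraries (SD, n = 3 each), and its pooled log2 fold change was -0.19 ± 0.13 (edgeR adjusted p = 0.777). Mitf, the master regulator of the lineage, had -0.24 ± 0.14 (adjusted p = 0.733 in edgeR). Bcl2, a survival factor that melanocyte stem cells depend on, lay below vehicle in all 6 stressed libraries, at 312, 409 and 362 CPM in the IR libraries, 424, 387 and 358 CPM in the DMBA libraries and 534, 471 and 442 CPM in the vehicle libraries. Its pooled value of -0.36 ± 0.13 did not pass the threshold (adjusted p = 0.509 in edgeR). Tyr and Tyrp1, enzymes of melanin synthesis, had -0.38 ± 0.16 and 0.30 ± 0.14.

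**Figure D5:**
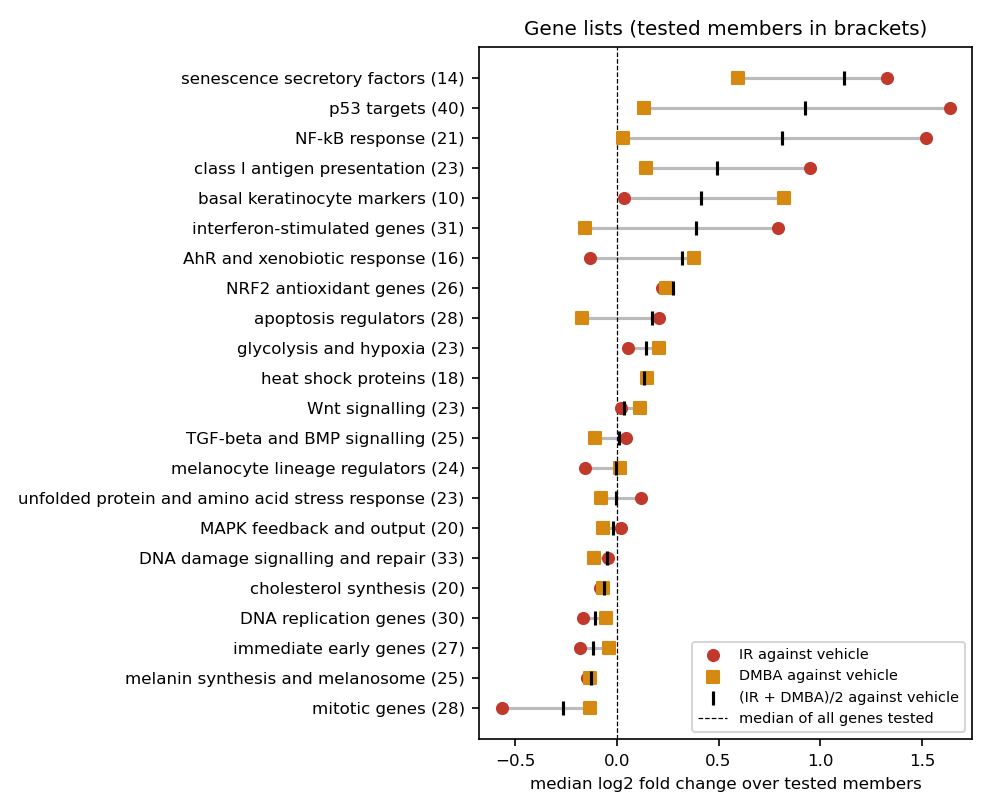
Median log2 fold change over the tested members of each gene list, for IR against vehicle (circles), DMBA against vehicle (squares) and the average (black bars), with the number of tested members in brackets and the dashed line at the median of all genes. The p53 and NF-kB lists lie at 1.63 and 1.52 in IR and near 0 in DMBA, and the basal keratinocyte markers lie at 0.82 in DMBA and 0.04 in IR.

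The remaining called genes belong to none of the lists that moved. Fat1, a giant cadherin, had 749, 807 and 705 CPM in the IR libraries, 185, 262 and 234 CPM in the DMBA libraries and 239, 180.1 and 232 CPM in the vehicle libraries. DMBA overlapped vehicle for Fat1, and the DMBA value was 0.06 ± 0.16. Gm42047 and Zfp469 had pooled values of 2.14 ± 0.25 and 2.41 ± 0.39, and both overlap Galnt2l on the same strand, so they may not be counted independently. Cep170b, a centrosomal protein homolog, had 1.38 ± 0.18 in IR and 0.41 ± 0.17 in DMBA. Rhbdf2 (iRhom2, which guides the protease ADAM17) had 2.33 ± 0.32 and 0.71 ± 0.31 in IR and DMBA. Cdc42bpg, a kinase that binds Cdc42, had 364, 289 and 239.96 CPM in the IR libraries, 119.9, 182 and 186 CPM in the DMBA libraries and 108, 87.1 and 134 CPM in the vehicle libraries. DMBA 2 and DMBA 3 lay above all vehicle libraries of Cdc42bpg, and DMBA 1 lay below vehicle 3. Exoc4, Slc19a2 (a thiamine transporter) and Pgpep1 had IR values of 1.86 ± 0.19, 2.63 ± 0.33 and 2.24 ± 0.24, against DMBA values of 0.09 ± 0.19, 0.36 ± 0.32 and -0.03 ± 0.23. Leaving out single libraries ended several of these calls: those of Slc19a2 and Pgpep1 were lost without any 1 library other than IR 1 or DMBA 1, that of Rhbdf2 without any 1 vehicle library or IR 3, and that of Cdc42bpg without vehicle 1, vehicle 2, DMBA 2 or DMBA 3. Exoc4 and Zfp469 were lost without vehicle 2 or vehicle 3, Cep170b without vehicle 1 or vehicle 2, and Fat1 without vehicle 2.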

How the data were processed

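RNA from sorted melanocyte stem cells was measured in 9 RNA-seq libraries, 3 per group, grouped and numbered by the sample titles. Per the labels' protocols, libraries were made with a stranded SMARTer kit. The submitters' processing notes name, without roles, HTSeq 0.6.1, HISAT2 2.0.1, cutadapt 1.9.1 and bcl2fastq 2.17.1.14. Genome build, annotation and strand setting of the counting are not stated in the labels, so reads of overlapping genes may be shared and no gene coordinates are printed. Raw read counts per gene are given in the deposited table, together with FPKM that the authors computed from them with exonic gene size and column totals; recomputed values matched within 0.005. It also gives the deposited exonic gene size. Genes without a symbol took 0.121 to 0.175% of counts, and mitochondrial genes 5.05 to 7.19%. No libraries were duplicates (chi-square per degree of freedom 15.5 to 38.8 within groups).

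Counts were tested in edgeR 4.0.16 (R 4.3.3) with filterByExpr, which kept 16051 of 55359 genes, TMM scaling and 1 mean per group over all 9 libraries. The contrast was the mean of IR and DMBA minus vehicle, two-sided quasi-likelihood, with Benjamini-Hochberg adjustment over all genes and a threshold of 0.05. Standard errors are the log2 fold change divided by the square root of F. The same-way and opposite-way tests took, in each direction, the larger of the 2 one-sided p of IR and DMBA against vehicle. The smaller p of the 2 directions was then doubled. The biological coefficient of variation was 49%. Marker sums were compared by exact permutation (84 splits, smallest two-sided p 0.0238).

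Named genes were the called genes without overlap of groups (up to 8 by size), the 8 smallest same-way p per direction and 6 smallest opposite-way p per order with an FPKM of at least 5 and no predicted name, up to 3 members of each list by pooled p, and 22 fixed genes; others are marked where named. The 28 gene lists held 565 entries, of which 563 were found. The comparison, lists and alternatives were chosen with earlier results of these data known. Simulated counts checked the tests: for shared changes the pooled test recovered 31.9% at 2-fold, 60.6% at 4-fold and 83.1% at 8-fold (16051 genes, 200 of them changed), and 4 unchanged genes were called. Alternatives used DESeq2 1.42.0 and limma 3.58.1, the latter on log2(FPKM + 1) for genes with an FPKM of at least 1 in 3 libraries, other scalings and filters, a replicate block, a keratinocyte covariate and fewer libraries. Promoters came from the RefSeq table (GRCm38.p6) and matched 23 of the 29 called genes. Python 3.11.15, pandas 2.3.3, numpy 2.4.6, scipy 1.17.1 and matplotlib 3.10.9 were used.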

Additional observations from a re-analysis of the deposited data

Results flagged for a closer look

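The effects of the 2 stresses differed from each other for 41 of the 126 genes named or called, by edgeR's quasi-likelihood test of IR against DMBA adjusted over all genes tested (0.978% of which were called). The values in brackets are the log2 effect of IR minus that of DMBA, with 3 libraries in each group, and both effects are measured against the same vehicle libraries. IR was above DMBA for 36 of the 41. Apart from the fixed genes, the 126 were chosen by p-values from these same libraries. The share of 41 among them is therefore not a result about these genes as a set.

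Among the genes called in the average of both stresses, IR was above DMBA for Gm42047 (4.96), Aen (3.88), Ccng1 (3.55), Zfp469 (3.20), Relb (3.06), Csf1 (2.90), Phlda3 (2.88), Trp53inp1 (2.49), Ephx1 (2.47), Sesn2 (2.44), Slc19a2 (2.28), Pgpep1 (2.27), Cdkn1a (1.86), Ei24 (1.84), Exoc4 (1.77), Fat1 (1.73), Rhbdf2 (1.61), Nfkb2 (1.56), Map3k20 (1.54), Nfkbia (1.23), Cep170b (0.97) and Arap2 (0.88). Most of the largest of these are targets of p53 or members of the NF-kB pathway.

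Among genes not called in the average, IR was above DMBA for Inka2 (5.6), Ifi47 (4.38), Mybl1 (3.57), Mmp2 (3.06), Birc3 (2.66), Mdm2 (2.28), Apaf1 (1.86), Arhgef40 (1.59), Birc2 (1.36), Tap1 (1.36), Tapbp (1.36), Csnk1g1 (1.01), Eif2ak3 (1.01) and Trp53 (0.93). Inka2, Mybl1, Arhgef40, Birc2, Tap1 and Csnk1g1 were named for opposite directions, so a difference between the stresses was part of how they were chosen.

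DMBA was above IR for Sgcb (-0.89), Tiparp (-1.18), Adh7 (-2.84), Cyp1b1 (-4.65) and Cyp1a1 (-10.25). Of these 5, Cyp1a1, Cyp1b1 and Tiparp are known AhR targets. Sgcb was named for opposite directions, so a difference between the stresses was part of how it was chosen too.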

How the results depend on the processing

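Counts that moved by over 1.5 times are given in the order higher, then lower, for the average of both stresses (29 and 0 in edgeR with all 9 libraries). With no count filter they were 117 and 12, with 76 differing between IR and DMBA (24 of 29 with the filter), 6 called the same way, 311 higher and 145 lower the same way in the looser count, and 26 and 7 opposite. DESeq2 called 82 and 7, with 51 differing between the stresses and 3 the same way. Limma on log2(FPKM + 1) called 10 higher, with 9 differing and 5 higher in IR and lower in DMBA; pseudocounts of 0.1 and 5 gave 9 higher, and 19 higher with 1 lower. Without vehicle 2 and IR 2, 12 were higher and 10 differed, with 274 higher and 53 lower the same way and 5 higher in IR and lower in DMBA. The keratinocyte covariate gave 2 lower, and 9 lower in IR and higher in DMBA. With 1 mean for the 6 stressed libraries 0 were higher. Fitting each stress with vehicle alone left 78 higher the same way and 1 lower in IR and higher in DMBA. Why these counts moved was not tested, other than through the fewer or more libraries and genes that each setting holds.

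Leaving out each library in turn gave 13 to 35 genes higher and 0 to 3 lower, 11 to 28 differing between the stresses, 0 to 1 called the same way, 139 to 300 higher and 66 to 129 lower in the looser same-way count, 5 to 27 higher in IR and lower in DMBA, and 1 to 82 in the other order. Of the 29 genes, 10 were called with every single library left out, and 6 (Aen, Ccng1, Phlda3, Map3k20, Cdkn1a and Trp53inp1) were lost under 1 mean for all stressed libraries and under no other of the 21 alternatives. No log2 fold change of a named gene changed sign with its call. Of 97 named genes not called in the average, 25 were called under some alternative. Without a filter the median of all genes shifted by 0.133 on the log2 scale.

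The replicate numbers did not pair the libraries: deviations of same-numbered libraries correlated between -0.0752 and 0.0405, and 0 of 9 pairs exceeded 0.1. With the number as a replicate block, 27 genes were higher, 23 differed between the stresses, 147 were higher and 73 lower the same way, and 15 and 1 were opposite. A biological coefficient of variation of 49% limits what 3 libraries per group can detect.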

Other observations

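Genes that turned up as lower in the average under some alternatives, but not with all libraries in edgeR, were led by Nav1, a neuron navigator protein of microtubules. It was called lower with DESeq2 (log2 fold change -0.66, adjusted p = 0.000522), with no count filter, with the keratinocyte covariate, and without IR 1, IR 2 or DMBA 1 in edgeR. Adgrl2, an adhesion receptor, was called lower with the covariate (-0.82, adjusted p = 0.0145 in edgeR) and without IR 1 (-0.83, adjusted p = 0.0317). Mki67, the proliferation marker, was called lower without IR 1 (-1.68, adjusted p = 0.0404 in edgeR) and with no count filter (-0.91, adjusted p = 0.0173). These genes were picked out after their values were seen.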
